A study of Ambystoma mexicanum with 12 samples.

Results

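The core microRNA pathway was followed across all libraries of the series through 8 genes: DROSHA, DGCR8, XPO5, DICER1, TARBP2, AGO2, TNRC6A and TNRC6B. They were chosen by name for their place in the pathway, and a member was any row of the expression table with one of these symbols. All 8 had a row among the 15091 gene symbols of the table. All 8 were also among the 13824 genes that were tested, those whose mean over the 12 libraries reached 1 TPM. TPM (a transcript's share of 1000000 transcripts) is corrected for length. Here that is the length of the assembled sequences (contigs) named after a gene, so levels of different genes can be compared only roughly.

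MicroRNAs are cut from long primary transcripts in the nucleus by the microprocessor, which pairs the RNase III enzyme DROSHA with the RNA-binding protein DGCR8. Exportin-5, encoded by XPO5, carries the hairpin to the cytoplasm with the GTPase RAN, and DICER1 with its partner TARBP2 cuts it to a duplex. An Argonaute protein such as AGO2 keeps one strand as a guide, and the GW182 proteins TNRC6A and TNRC6B connect the loaded Argonaute to deadenylation and decay of the target mRNA. Loss of Dicer or of the microprocessor stops the making of most microRNAs in mouse neural tissue.

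The study asked how AP-1 and miR-200a act in the glial response of the axolotl spinal cord to injury. Spinal cord RNA was sequenced in 12 libraries, 3 in each of 4 groups: uninjured cord, cord 4 days post injury (4 dpi) with a control inhibitor, uninjured cord injected with a miR-200 inhibitor, and 4 dpi cord with the miR-200 inhibitor. The inhibitor, an oligonucleotide that blocks the microRNA, was by the labels injected into the central canal, in injured animals directly before a piece of cord was taken out. By the methods of the study it was electroporated on the day of injury and again 2 days later. The labels name it after miR-200 and the study's text after miR-200a. The animals were of the white strain by the study's methods and measured 2 to 3 cm, and each library is a pool of 10 animals by the labels, while the study's methods give another number and size. The labels do not say that the uninjured group was injected, so injection and inhibitor cannot be told apart in uninjured cord, and the uninjured inhibitor group does not appear in the methods of the study for RNA sequencing. P-values measure the spread between these pools, and in bulk tissue fewer cells of a type and less RNA per cell cannot be told apart.

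Several libraries stood apart. The libraries are called by the numbers in their labels: 1, 5 and an unnumbered one in the uninjured group, 1, 5 and 6 in the 4 dpi control group, and 5, 6 and 7 in both inhibitor groups. Of the 13824 tested genes, 757 and 1175 lay below 0.2 TPM in uninjured inhibitor libraries 5 and 7, against 101 to 281 in the other 10 libraries. Median-of-ratios size factors, which measure the level of a typical gene in a library, were 1.77 and 1.67 in both libraries numbered 1, between 1.08 and 1.21 in the other uninjured and 4 dpi control libraries, and between 0.65 and 0.93 in the 6 inhibitor libraries. A typical gene therefore had a lower TPM in the inhibitor libraries, and each comparison is given on the TPM scale and again after dividing by these factors. The median log2 fold change of all tested genes was -1.10 for uninjured inhibitor against uninjured libraries on the TPM scale and -0.17 after scaling. Summed TPM of 10 skeletal muscle markers ranged from 9772 to 41591 in uninjured and from 3446 to 8961 in uninjured inhibitor libraries. The 10 neuronal markers summed to 2204 to 12033 and 2135 to 3132 TPM and the 12 microglia and macrophage markers to 103 to 273 and 501 to 658 TPM in the same groups, with no marker of these lists at 0 in a whole group. The part of these cell types in the results on the pathway was not tested.

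**Figure D1:**
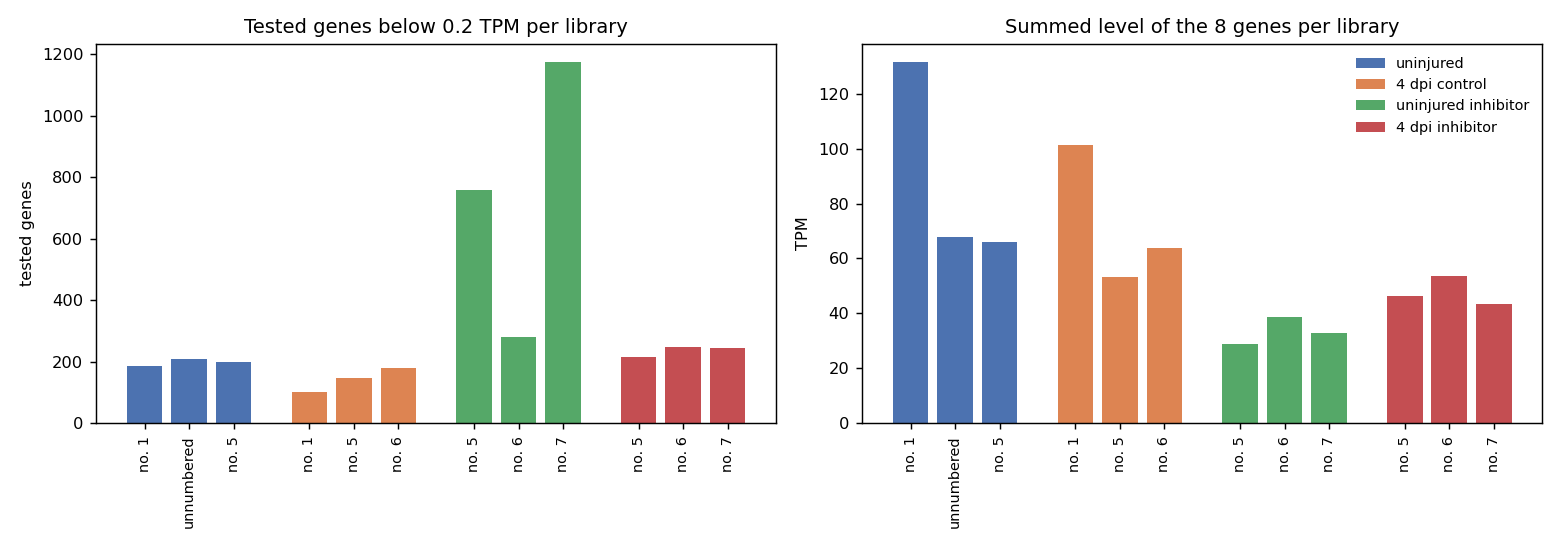
Bars give, for each of the 12 libraries, the number of tested genes below 0.2 TPM (left) and the summed TPM of the 8 pathway genes (right), coloured by group. Uninjured inhibitor libraries 5 and 7 have 757 and 1175 genes at such low values, and the summed level of the 8 genes is highest, at 132 and 101 TPM, in both libraries numbered 1.

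All 8 genes were expressed at low to moderate levels, and their order by TPM was much the same from group to group. In uninjured cord DICER1 averaged 23.8 ± 11.2 TPM (SD, n = 3) and XPO5 21.6 ± 7.59 TPM, which placed them at the 60.9 and 58.5 percentile of tested genes. DGCR8 followed at 11.9 ± 5.46 TPM, TARBP2 at 9.59 ± 2.68 TPM and TNRC6A at 9.15 ± 4.89 TPM. AGO2 at 5.36 ± 3.43 TPM, DROSHA at 5.03 ± 3.38 TPM and TNRC6B at 1.99 ± 1.34 TPM were the lowest of the 8. The libraries of neighbours in this order overlapped except between XPO5 and DGCR8. The same gap below XPO5 and DICER1 was seen in 4 dpi control and uninjured inhibitor libraries. In the 4 dpi inhibitor group XPO5, DICER1 and DGCR8 came first, and XPO5 overlapped with DICER1 and DICER1 with DGCR8. AGO2 moved up from the sixth to the fourth place at 5.54 ± 0.920 TPM. Gaps in this group lay between DGCR8 and AGO2, between TARBP2 and TNRC6A, and between TNRC6A and DROSHA.

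**Figure D2:**
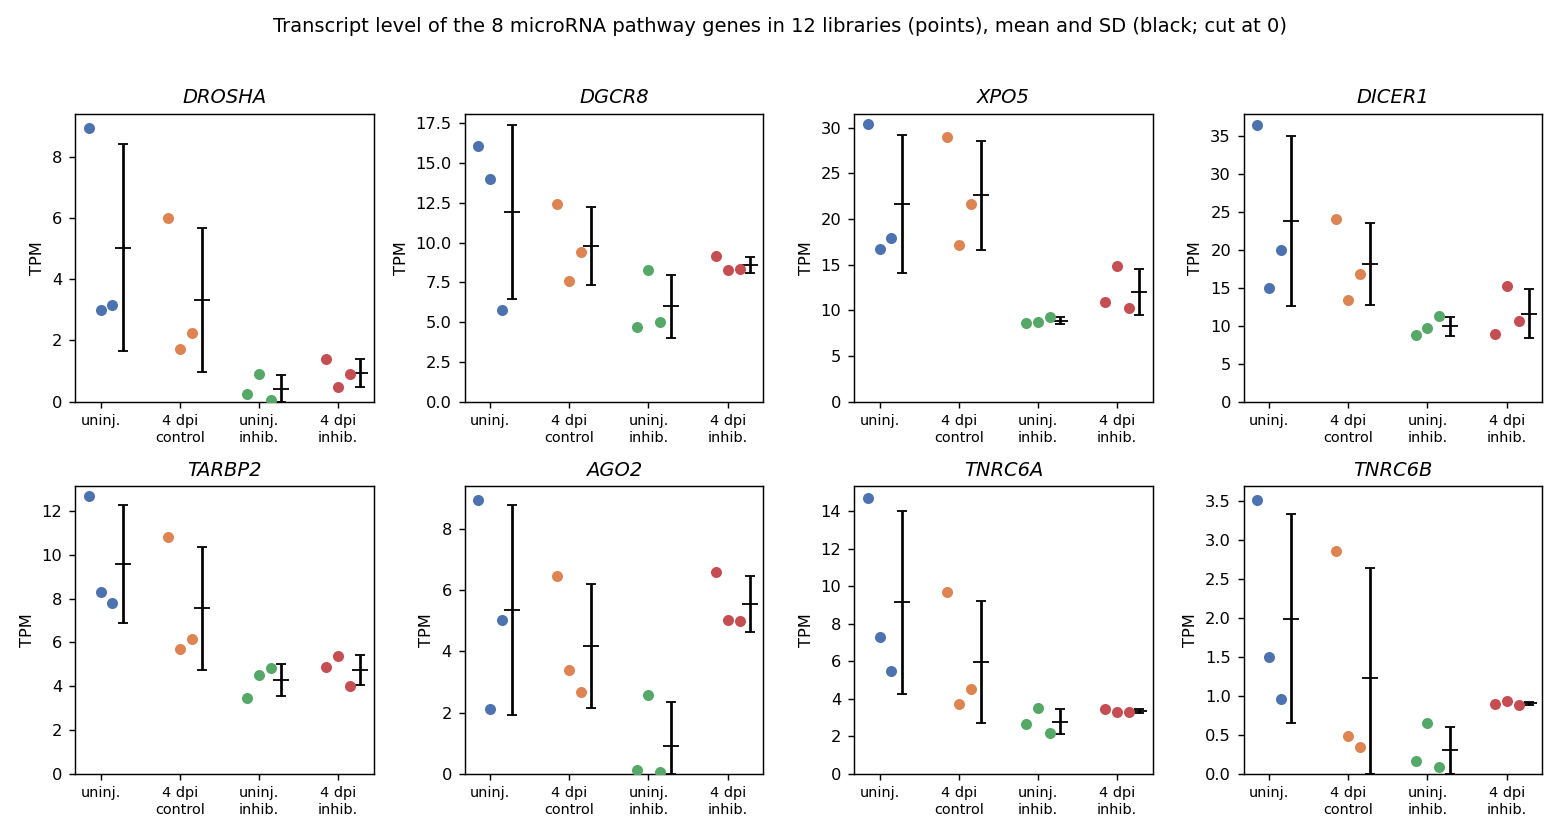
Each panel plots the TPM of 1 gene in the 12 libraries by group, with points for libraries and black bars for the group mean and SD, cut at 0. DROSHA lies at or below 1.41 TPM in all 6 inhibitor libraries, and AGO2 lies at 0.130 and 0.05 TPM in 2 of the 3 uninjured inhibitor libraries and between 4.998 and 6.60 TPM in the 4 dpi inhibitor group.

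Injury with the control inhibitor was compared with uninjured cord to see how the pathway stood at 4 dpi. None of the 8 genes was called, none had an unadjusted p under 0.05 with limma, and the background was 0.904% of tested genes called in either direction. Fold changes ran from -0.997 for TNRC6B to 0.08 for XPO5 on the log2 scale, with a median of -0.35 beside -0.08 for all tested genes. The libraries of both groups overlapped for every member, where 7.85% of tested genes lay higher and 1.88% lower without overlap. For the exporter XPO5, measured at 30.4, 16.7 and 17.9 TPM in uninjured libraries 1, unnumbered and 5 and at 29.0, 17.2 and 21.7 TPM in 4 dpi control libraries 1, 5 and 6, the 95% interval of the log2 difference ran from -0.56 to 0.73. Those of DROSHA, -2.30 to 1.09, and AGO2, -2.18 to 1.72, left room for changes of more than 2-fold either way. After scaling 0 members were called, beside 0.977% of tested genes, none had an unadjusted p under 0.05, and the median was -0.31.

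In uninjured cord with the miR-200 inhibitor DROSHA and AGO2 were called lower than in uninjured cord without it on both scales. On the TPM scale 7 of the 8 genes were called lower, beside 51.1% of all tested genes, and all 8 had a log2 fold change below 0. DROSHA and TNRC6B, among the 7, passed the filter only through their levels in the groups without the inhibitor. The median of the 8 was -1.41 beside -1.10 for all genes. Libraries of the groups did not overlap for 6 of them, DROSHA, XPO5, DICER1, TARBP2, TNRC6A and TNRC6B, against a background of 50.8% of tested genes lower without overlap. After scaling, 2 of the 8 were called lower, DROSHA and AGO2, where 17.8% of tested genes were, and 7 had a log2 fold change below 0. On that scale 3, DROSHA, XPO5 and TNRC6A, lay lower without overlap, where 20.4% of tested genes did. Leaving out both libraries with many low values, 5 and 7, which leaves a single uninjured inhibitor library assumed to vary like the others, called 0 members on both scales with 7 genes called of all tested on the TPM scale and 12 after scaling.

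DROSHA, the enzyme that makes the first cut, was measured at 8.93, 3.00 and 3.15 TPM in uninjured libraries 1, unnumbered and 5. It was at 0.253, 0.917 and 0.0461 TPM in uninjured inhibitor libraries 5, 6 and 7. Every uninjured inhibitor library lay below every uninjured library, and library 7 was the lowest of all 12. DROSHA fell by 3.59 on the log2(TPM + 0.1) scale (SE 0.78, limma adjusted p = 0.00377). After scaling it fell by 2.84 (SE 0.71, adjusted p = 0.0104), from 5.04, 2.71 and 2.60 to 0.384, 1.18 and 0.0711 scaled TPM. With a mean of 2.42 TPM, DROSHA passed the filter of 1 TPM only through the groups without the inhibitor. It averaged 5.03 TPM in uninjured and 3.32 TPM in 4 dpi control libraries. In uninjured inhibitor and 4 dpi inhibitor libraries it averaged 0.406 and 0.931 TPM. Its calls against uninjured cord are therefore tied to the groups in which it was high. The pseudocount of 0.1 TPM is larger than the value in library 7 and, if that value is taken as listed, understates the change. That library also had 1175 tested genes below 0.2 TPM and depth is unknown, so the size of the fall is uncertain in both directions.

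The DROSHA call held with each of the 12 libraries left out in turn, with log2 fold changes from -4.31 without uninjured inhibitor library 6 to -2.91 without library 7 and adjusted p from 0.00191 to 0.0166. It held in all 12 of these after scaling as well, from -3.56 to -2.10 with adjusted p from 0.00327 to 0.0373. Each of these fits kept the filter taken from all 12 libraries. The tie of DROSHA to the groups in which it was high is therefore carried into each, and they are no separate support for the call. Without uninjured inhibitor libraries 5 and 7 together the log2 fold change was -2.14 (adjusted p = 0.161) on the TPM scale and -1.40 (adjusted p = 0.316) after scaling.

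DGCR8, which anchors the hairpin for DROSHA, was the only member not called on the TPM scale. Its level was 16.1, 13.99 and 5.74 TPM in uninjured libraries 1, unnumbered and 5 and 4.68, 8.25 and 5.02 TPM in uninjured inhibitor libraries 5, 6 and 7. The groups overlapped, since uninjured library 5 was lower than inhibitor library 6. The log2 fold change was -0.90 (SE 0.39, adjusted p = 0.0641) on the TPM scale and 0.03 (95% interval -0.67 to 0.74) after scaling. Without uninjured library 5 the adjusted p was 0.00787 and without uninjured inhibitor library 6 it was 0.0394.

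The balance of the microprocessor pair was then compared within each library, where a scaling factor cancels. DGCR8 per DROSHA was 1.80, 4.67 and 1.82 in uninjured libraries 1, unnumbered and 5 and 2.07, 4.40 and 4.21 in 4 dpi control libraries 1, 5 and 6. It was 18.5, 8.99 and 109 in uninjured inhibitor libraries 5, 6 and 7 and 6.50, 17.1 and 9.25 in 4 dpi inhibitor libraries 5, 6 and 7. All 6 inhibitor libraries lay above all 6 others. How many gene pairs of the whole table separate in this way was not counted. The ratio reuses the DROSHA values given above, so it is no separate result. No pseudocount was added, and low values do not cancel in a ratio. The ratios of 109 and 18.5 rest on DROSHA at 0.0461 and 0.253 TPM in uninjured inhibitor libraries 7 and 5, those with many low values. Each of the 3 comparisons of an inhibitor group with a group without it gave p = 0.1 in an exact two-sided permutation test, the smallest p that 3 libraries against 3 allow. In all, 50 such tests were made on 10 ratios, sums and shares, of which 22 reached 0.1, and the lowest Benjamini-Hochberg value was 0.227.

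XPO5, which carries hairpins through the nuclear pore, was at 30.4, 16.7 and 17.9 TPM in uninjured libraries 1, unnumbered and 5 and at 8.60, 8.70 and 9.27 TPM in uninjured inhibitor libraries 5, 6 and 7. The uninjured inhibitor libraries lay within 1 TPM of each other and below all uninjured ones. XPO5 fell by 1.23 (SE 0.30, adjusted p = 0.00586), close to the median of all genes. After scaling the log2 fold change was -0.29 with an interval of -0.71 to 0.14.

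The dicing enzyme DICER1 was at 36.4, 15.0 and 20.0 TPM in uninjured libraries 1, unnumbered and 5 and at 8.80, 9.71 and 11.3 TPM in uninjured inhibitor libraries 5, 6 and 7. Its double-stranded RNA-binding partner TARBP2 was at 12.7, 8.29 and 7.81 TPM and at 3.47, 4.51 and 4.85 TPM in the same libraries. Neither gene overlapped between the groups. DICER1 fell by 1.16 (adjusted p = 0.0158) and TARBP2 by 1.13 (adjusted p = 0.0149) on the TPM scale, and after scaling the log2 fold changes were -0.22 (interval -0.74 to 0.30) and -0.19 (interval -0.69 to 0.31). Both calls were lost without uninjured library 1 (adjusted p = 0.0619 for DICER1 and 0.0503 for TARBP2) and without uninjured inhibitor library 5 (0.0556 and 0.0624). The ratio of DICER1 to TARBP2 stayed between 1.81 and 2.87 in all 12 libraries.

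AGO2, the Argonaute that can slice a target, was at 8.94, 2.11 and 5.03 TPM in uninjured libraries 1, unnumbered and 5. In uninjured inhibitor libraries 5, 6 and 7 it was at 0.130, 2.58 and 0.05 TPM. Libraries 5 and 7 lay below every other library of the series, while library 6 lay within the uninjured range. AGO2 fell by 3.37 (SE 0.90, adjusted p = 0.00862) on the TPM scale and by 2.64 (SE 0.86, adjusted p = 0.0314) after scaling. Both low values are in the libraries with 757 and 1175 genes below 0.2 TPM, and with those libraries left out the log2 fold change was -0.81 (adjusted p = 0.447) on the TPM scale and -0.04 (adjusted p = 0.977) after scaling.

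With 1 library left out at a time, AGO2 stayed called on the TPM scale, from -4.65 without uninjured inhibitor library 6 to -2.58 without library 7, but not when only both compared groups were fitted (adjusted p = 0.0516). After scaling the AGO2 call was lost in 4 of 12 such fits: without uninjured library 1 (adjusted p = 0.0905), uninjured library 5 (0.0715), uninjured inhibitor library 5 (0.114) and uninjured inhibitor library 7 (0.124).

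The GW182 scaffold TNRC6A was at 14.7, 7.27 and 5.49 TPM in uninjured libraries 1, unnumbered and 5 and at 2.66, 3.50 and 2.17 TPM in uninjured inhibitor libraries 5, 6 and 7. Its relative TNRC6B was at 3.51, 1.504 and 0.959 TPM and at 0.169, 0.648 and 0.0921 TPM in these libraries. Neither gene overlapped between the groups, and TNRC6B was lowest in libraries 5 and 7. TNRC6A fell by 1.59 (limma adjusted p = 0.0108) and TNRC6B by 2.44 (adjusted p = 0.0279) on the TPM scale. After scaling neither passed, at -0.66 (adjusted p = 0.104) and -1.69 (adjusted p = 0.0867). With a mean of 1.11 TPM, TNRC6B passed the filter of 1 TPM only through the groups without the inhibitor. It averaged 1.99 TPM in uninjured and 1.23 TPM in 4 dpi control libraries. In uninjured inhibitor and 4 dpi inhibitor libraries it averaged 0.303 and 0.901 TPM. Its call is therefore tied to the group in which it was high. The TNRC6B call on the TPM scale was lost without uninjured library 1 (log2 fold change -1.95, adjusted p = 0.0969), without uninjured inhibitor library 5 (-2.27, 0.0804) and without uninjured inhibitor library 7 (-2.03, 0.0953), and also when only both compared groups were fitted (-2.44, 0.0570).

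**Figure D3:**
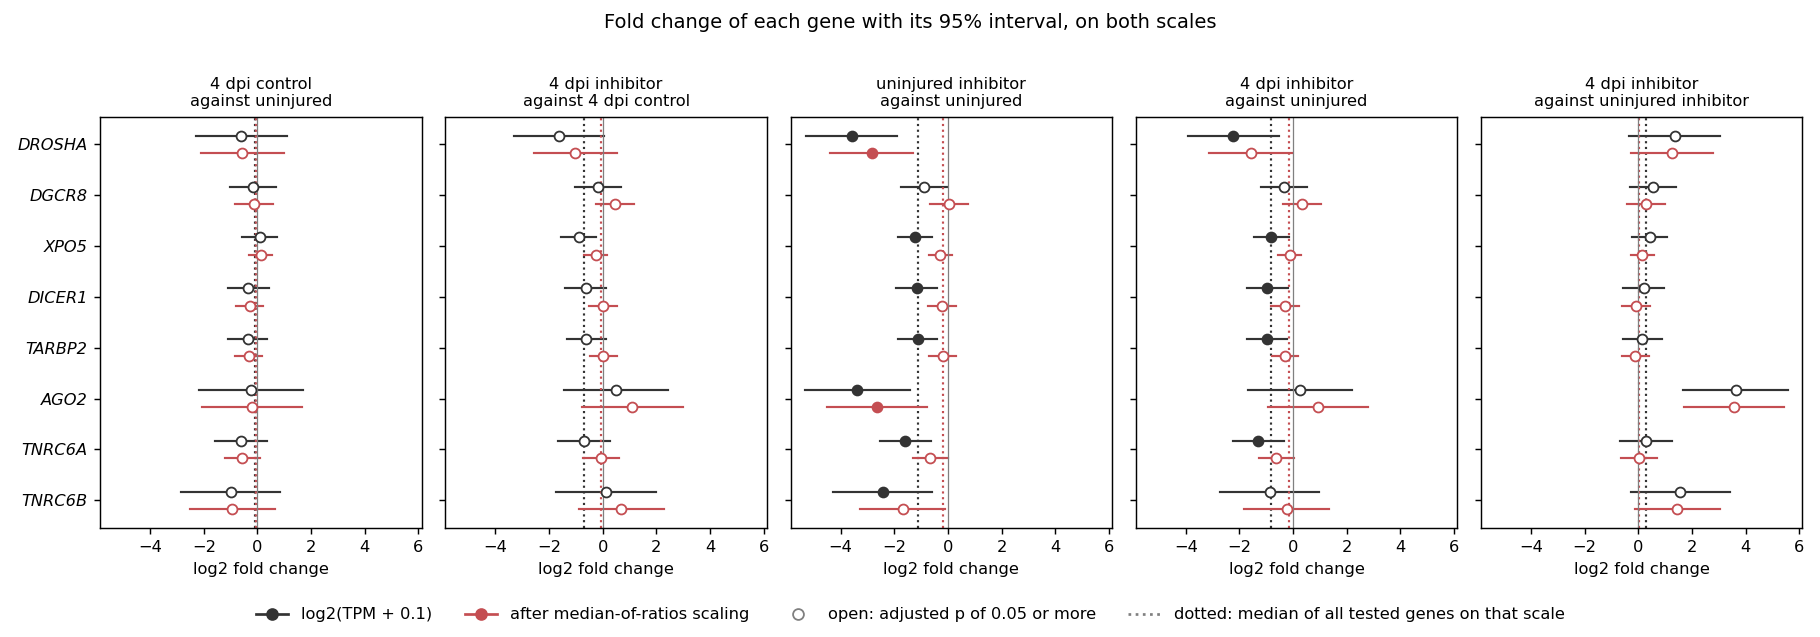
Points give the log2 fold change of each of the 8 genes in 5 comparisons and lines its 95% interval, in black on log2(TPM + 0.1) and in red after median-of-ratios scaling, with filled points at an adjusted p under 0.05 and dotted lines at the median of all tested genes. On the red scale the filled points are DROSHA at -2.84 and AGO2 at -2.64, both in uninjured inhibitor against uninjured libraries.

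Injured cords with the inhibitor were compared with injured cords with the control inhibitor, the comparison closest to the study's question. None of the 8 genes was called with limma, where 3.82% of all tested genes were, and XPO5 was the only member with an unadjusted limma p under 0.05. XPO5 was at 29.0, 17.2 and 21.7 TPM in 4 dpi control libraries 1, 5 and 6 and at 10.96, 14.8 and 10.2 TPM in 4 dpi inhibitor libraries 5, 6 and 7. These libraries did not overlap, and the log2 fold change was -0.89 (SE 0.30, limma adjusted p = 0.0760), with -0.69 as the median of all genes. Without uninjured library 1, which enters only through the shared spread, the adjusted p was 0.0355, and after scaling the log2 fold change was -0.26 (adjusted p = 0.538).

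Levels without overlap were seen for 4 of the 8, DROSHA, XPO5, TARBP2 and TNRC6A, all lower with the inhibitor, where 49% of all tested genes were lower without overlap. DROSHA was at 6.001, 1.73 and 2.23 TPM in 4 dpi control libraries 1, 5 and 6 and at 1.41, 0.482 and 0.904 TPM in 4 dpi inhibitor libraries 5, 6 and 7. Its log2 fold change was -1.63 with an interval of -3.32 to 0.06, so a large fall and no change are both within the error. AGO2 was at 6.48, 3.38 and 2.67 TPM in the controls and at 6.60, 5.01 and 4.998 TPM with the inhibitor, a log2 fold change of 0.49 (interval -1.46 to 2.43). After scaling no gene of the whole table was called in this comparison, although 2559 of them, none of the 8, had an unadjusted p under 0.05. DGCR8 and AGO2 then lay higher with the inhibitor without overlap, as did 18.5% of tested genes.

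Against uninjured cord, 5 of the 8 genes were called lower at 4 dpi with the inhibitor, where 31.2% of tested genes were. Uninjured cord is also the reference of both comparisons with it above. DROSHA fell by 2.23 (adjusted p = 0.0382), TNRC6A by 1.30 (0.0353), TARBP2 by 0.97 (0.0377), DICER1 by 0.97 (0.0456) and XPO5 by 0.81 (0.0465) on the log2 scale. DGCR8 at -0.34, TNRC6B at -0.87 and AGO2 at 0.26 did not pass, and the median of the 8 was -0.92 beside -0.81 for all genes. Libraries did not overlap for 5 of the 8, DROSHA, XPO5, TARBP2, TNRC6A and TNRC6B, all lower, beside 41.8% of tested genes. After scaling no member was called by limma, beside 28.7% of tested genes in either direction, and DROSHA was the only one with an unadjusted p under 0.05, at -1.58 (adjusted p = 0.111). On that scale DROSHA, TARBP2 and TNRC6A lay lower without overlap, as did 22% of tested genes, and AGO2 lay higher without overlap, as did 23.8%. The count of 5 fell to 0 without uninjured library 1, uninjured inhibitor library 5, or 4 dpi inhibitor library 5 or 7, to 1 without 4 dpi control library 6, to 2 without 4 dpi inhibitor library 6 and to 3 without uninjured inhibitor library 6 or 7.

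Injury within the inhibitor groups was followed by comparing 4 dpi inhibitor with uninjured inhibitor libraries. None of the 8 genes was called with limma, where 0.622% of tested genes were, and AGO2 was the only member with an unadjusted p under 0.05. AGO2 was at 6.60, 5.01 and 4.998 TPM in 4 dpi inhibitor libraries 5, 6 and 7 and at 0.130, 2.58 and 0.05 TPM in uninjured inhibitor libraries 5, 6 and 7. All 4 dpi inhibitor libraries were higher, and the log2 fold change was 3.63 (SE 0.90, limma adjusted p = 0.0831) on the TPM scale and 3.56 (adjusted p = 0.0608) after scaling, where 1.28% of tested genes were called. DGCR8, XPO5 and TNRC6B also lay higher without overlap, so that 4 of 8 did, beside 29.6% of all tested genes. After scaling AGO2 and TNRC6B did, 2 of 8, beside 18.3%. Leaving out uninjured inhibitor library 6 gave AGO2 a log2 fold change of 4.91 (adjusted p = 0.00514), and leaving out the unnumbered uninjured library, which is in neither group, an adjusted p of 0.0491. Without uninjured inhibitor libraries 5 and 7 the log2 fold change was 1.06 (adjusted p = 1).

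Whether injury acted differently with the miR-200 inhibitor was tested as the difference between both injury effects. No member passed with limma, and 0.0434% of tested genes did. AGO2 had the largest difference of the 8, 3.86 on the log2 scale (SE 1.27, limma adjusted p = 0.587). On the TPM scale it was the only member with an unadjusted p under 0.05. After scaling the AGO2 difference was 3.75 (limma adjusted p = 0.514), where 0.0289% of tested genes passed. Its adjusted p was 0.0178 when uninjured inhibitor library 6 was left out as well. That fit keeps only uninjured inhibitor libraries 5 and 7, those with many low values, where AGO2 was at 0.130 and 0.05 TPM. On the TPM scale the differences of the other 7 ran from 0.33 for XPO5 to 2.56 for TNRC6B. The median was 0.82 over the 8 and 0.31 over all genes. After scaling these medians were 0.51 and 0.01, and TNRC6B at 2.39 also had an unadjusted limma p under 0.05.

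AGO2 is 1 of 4 Argonautes, and reads of close relatives can be assigned to the wrong row, because contigs were named by their best match to a human protein. AGO4 was the most abundant Argonaute row, with 47.1% to 97.3% of the summed AGO1, AGO2, AGO3 and AGO4 level in each library. AGO4 was at 27.0, 17.6 and 10.4 TPM in uninjured libraries 1, unnumbered and 5 and at 4.67, 7.01 and 4.67 TPM in uninjured inhibitor libraries 5, 6 and 7. AGO4 fell by 1.66 (SE 0.34, adjusted p = 0.00324) in this comparison and by 0.72 after scaling (adjusted p = 0.0469).

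The share of AGO2 in the Argonaute sum was 20.7%, 10.2% and 30.3% in uninjured libraries 1, unnumbered and 5 and 26.1%, 23.5% and 16.3% in 4 dpi control libraries 1, 5 and 6. It was 2.61%, 24.2% and 1.04% in uninjured inhibitor libraries 5, 6 and 7 and 38.4%, 33.1% and 31.9% in 4 dpi inhibitor libraries 5, 6 and 7. The 4 dpi inhibitor libraries had the highest shares of the 12, and uninjured inhibitor libraries 5 and 7 the lowest (exact two-sided permutation p = 0.1 for 4 dpi inhibitor against each other group, the smallest possible). The Argonaute sum itself was 16.6 to 43.2 TPM in uninjured, 14.4 to 24.8 in 4 dpi control, 4.803 to 10.7 in uninjured inhibitor and 15.2 to 17.2 in 4 dpi inhibitor libraries.

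TNRC6A supplied most of the GW182 sum in every library, between 66.4% and 93.8%. The sum with TNRC6B and TNRC6C was 7.35 to 21.9 TPM in uninjured, 4.68 to 14.6 TPM in 4 dpi control, 2.31 to 4.50 TPM in uninjured inhibitor and 4.54 to 4.84 TPM in 4 dpi inhibitor libraries. AGO1 and TNRC6C averaged below 1 TPM and were not tested.

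**Figure D4:**
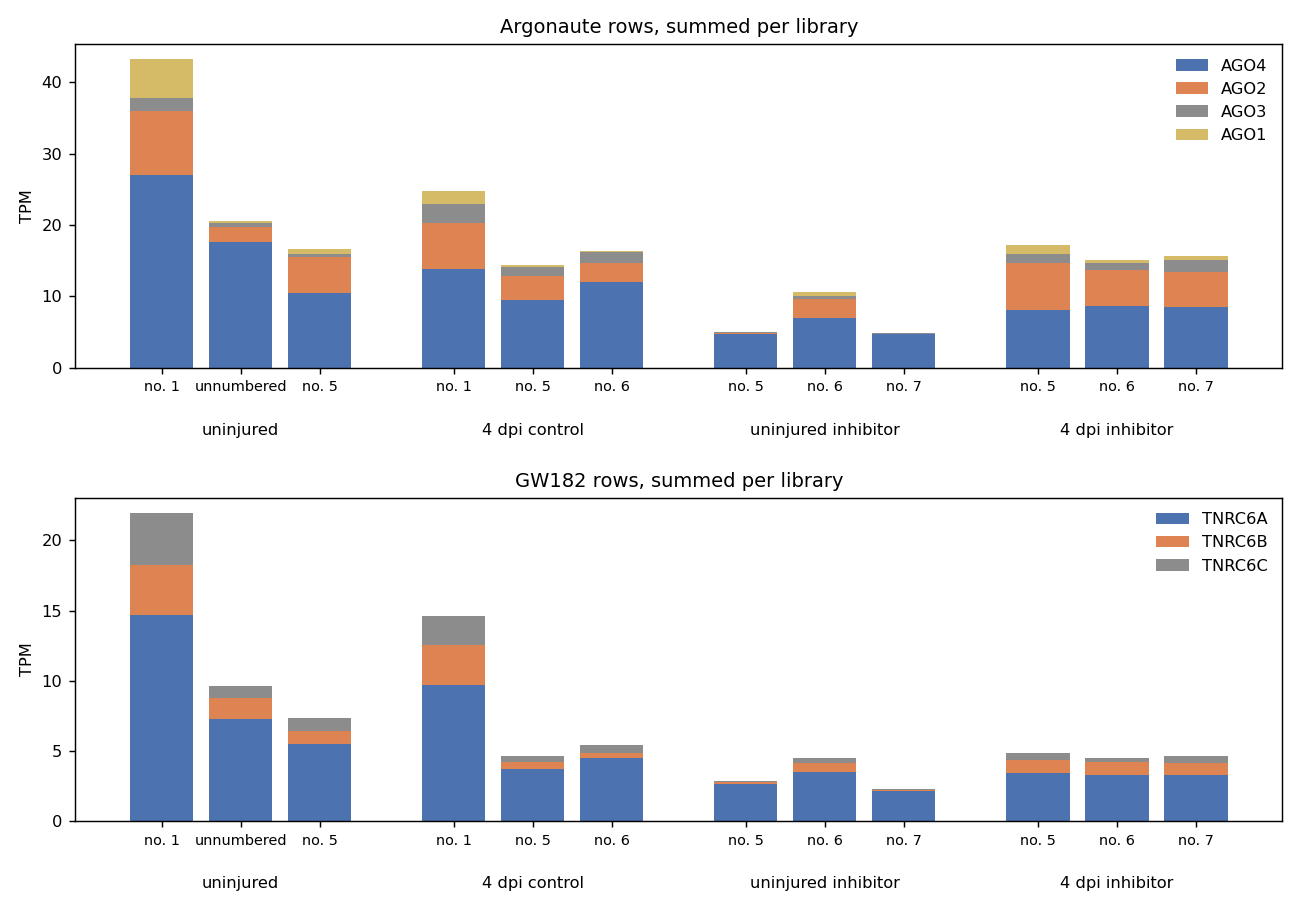
Stacked bars give the TPM of the Argonaute rows (top) and the GW182 rows (bottom) in each of the 12 libraries, by group. AGO4 and TNRC6A are the largest rows throughout, and the AGO2 part is 2.61% and 1.04% of the Argonaute sum in uninjured inhibitor libraries 5 and 7.

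The other double-stranded RNA-binding partner of DICER1, PRKRA (PACT), was far more abundant than TARBP2. It was at 157, 83.3 and 126 TPM in uninjured libraries 1, unnumbered and 5 and at 173, 184 and 115 TPM in uninjured inhibitor libraries 5, 6 and 7. PRKRA per TARBP2 was 10.1 to 16.2 in uninjured, 13.1 to 25.8 in 4 dpi control, 23.6 to 49.9 in uninjured inhibitor and 30.8 to 43.4 in 4 dpi inhibitor libraries, so both inhibitor groups lay above uninjured (exact two-sided permutation p = 0.1, the smallest possible). PRKRA did not pass on the TPM scale (log2 fold change 0.38, adjusted p = 0.196) and rose by 1.33 (adjusted p = 0.00361) after scaling.

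Genes that work around the 8 were taken as 9 lists by role. None of their tested genes was called at 4 dpi with the control inhibitor against uninjured, where 0.904% of all tested genes were. With 2 to 23 tested genes per list, few calls could come at that share. For uninjured inhibitor against uninjured libraries, the counts are read beside 51.1% of tested genes called lower and 7.39% called higher on the TPM scale, and 17.8% and 19.4% after scaling. In the counts of the lists, fell and rose mean called lower and called higher. Of 12 nuclear processing partners, 8 fell and 2 rose on the TPM scale and 4 fell and 4 rose after scaling. KHSRP, which binds terminal loops of some precursors, fell by 3.07 (adjusted p = 0.00192) and by 2.14 after scaling (adjusted p = 0.00540). TARDBP (TDP-43), which is found with the microprocessor, fell by 2.10 (adjusted p = 0.00182) and by 1.15 after scaling (adjusted p = 0.00376). ILF2, the most abundant of the list, did not pass on the TPM scale (log2 fold change 0.32, adjusted p = 0.306). After scaling ILF2 rose by 1.27 (adjusted p = 0.0124). KHSRP was at 56.1, 39.6 and 27.0 TPM in uninjured libraries 1, unnumbered and 5 and at 3.68, 12.1 and 2.11 TPM in uninjured inhibitor libraries 5, 6 and 7, again lowest in libraries 5 and 7.

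The Ran export cycle split, with 2 of 4 genes higher and 2 lower on the TPM scale. RAN, the GTPase that XPO5 needs to hold its cargo, rose by 0.71 (adjusted p = 0.00813) and by 1.66 after scaling (adjusted p = 0.00458), while RANGAP1, which ends the cycle in the cytoplasm, fell by 1.75 (adjusted p = 0.00352) and by 0.81 after scaling (adjusted p = 0.0301). RAN was at 711, 686 and 755 TPM in uninjured libraries 1, unnumbered and 5 and at 1131, 1164 and 1230 TPM in uninjured inhibitor libraries 5, 6 and 7. RAN and its exporter XPO5 thus stood on opposite sides of their uninjured levels on the TPM scale. Of 13 other Argonautes and loading chaperones, 4 fell and 1 rose, and 3 fell and 6 rose after scaling. HSP90AB1, a chaperone of Argonaute loading, fell by 2.12 (adjusted p = 0.00182), by 1.17 after scaling (adjusted p = 0.00718).

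Downstream of the GW182 proteins, 10 of 13 deadenylation genes fell and none rose on the TPM scale, and 4 fell and 2 rose after scaling. PAN2, of the PAN2-PAN3 deadenylase, fell by 2.14 (adjusted p = 0.00334), by 1.21 after scaling (adjusted p = 0.0125). CNOT6, a catalytic subunit of CCR4-NOT and the most abundant of the list, did not pass at -0.15 (adjusted p = 0.656) and rose by 0.80 after scaling (adjusted p = 0.0143). Both poly(A)-binding proteins fell on the TPM scale and neither passed after scaling.

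Of 23 decapping, decay and repression genes, 11 fell and 6 rose on the TPM scale, and 2 fell and 7 rose after scaling. The risers included LSM3, LSM5 and LSM6, small proteins of the ring that helps decapping, and also of the nuclear ring on the U6 snRNA. LSM3 was at 181, 198 and 232 TPM in uninjured libraries 1, unnumbered and 5 and at 582, 496 and 575 TPM in uninjured inhibitor libraries 5, 6 and 7. LSM3 rose by 1.44 (adjusted p = 0.00181), LSM5 by 1.40 (0.00181) and LSM6 by 1.46 (0.00181). LSM14B, with the lowest p of the list, fell by 1.53 (adjusted p = 0.00180) and did not pass after scaling (-0.58, adjusted p = 0.0630). LSM2, of the same list, averaged 39.1 TPM in uninjured and 30.6 TPM in uninjured inhibitor libraries. LSM3, LSM5 and LSM6 were also higher in 4 dpi inhibitor than in 4 dpi control libraries, by 0.94 (adjusted p = 0.0471), 1.03 (0.0439) and 0.999 (0.0458). LSM14B was lower there by 1.27 (adjusted p = 0.0429), the 1 gene of the list called lower beside 3 called higher. Of the 13824 tested genes, 87 were called higher and 441 lower in this comparison. It also called lower 3 of 13 other Argonautes and loading chaperones, 2 of 13 deadenylation genes and 2 of 15 regulators of precursors and turnover. None of these 3 lists held a gene called higher. None of these was called after scaling, where no gene was.

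Of 15 tested regulators of precursors and of microRNA turnover, 10 fell and none rose on the TPM scale, and 4 fell and 1 rose after scaling. FXR2, a relative of the fragile X protein, was at 106, 230 and 145 TPM in uninjured libraries 1, unnumbered and 5 and at 17.8, 38.7 and 20.5 TPM in uninjured inhibitor libraries 5, 6 and 7. The groups lay far apart, and FXR2 fell by 2.65 (adjusted p = 0.00145), by 1.70 after scaling (adjusted p = 0.00641). The exonuclease XRN2 fell by 1.51 (adjusted p = 0.00182), by 0.56 after scaling (adjusted p = 0.0473).

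**Figure D5:**
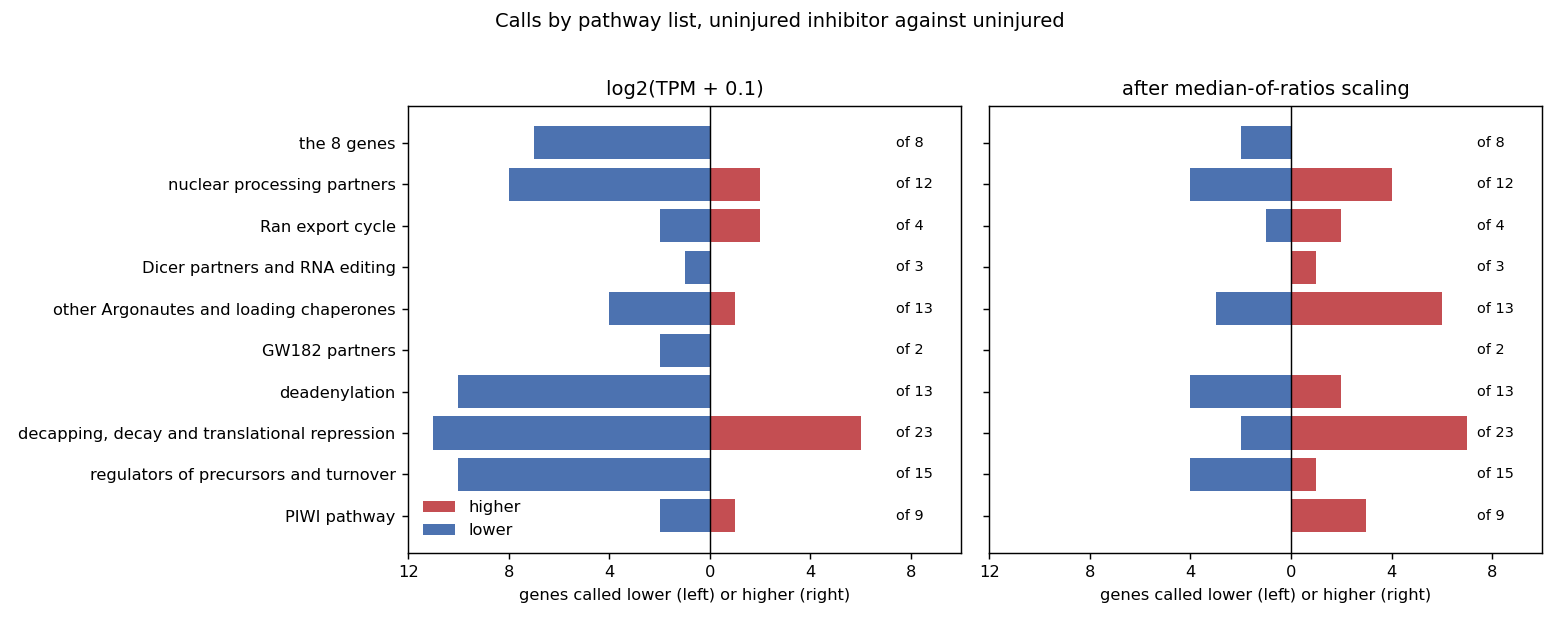
Bars count the genes called lower (left of 0) and higher (right of 0) in uninjured inhibitor against uninjured libraries, for the 8 genes and 9 lists of the pathway, with the number tested beside each. On the TPM scale 7 of the 8 genes are called lower, and after scaling 2 are. The nuclear processing partners then hold 4 genes called higher and 4 called lower.

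The 8 genes moved together over the 12 libraries on the TPM scale and less so after scaling. The Pearson r between pairs of members had a median of 0.80 over 28 pairs on log2(TPM + 0.1), from 0.50 to 0.94 for TARBP2 with TNRC6A, and a median of 0.26 after scaling. All points share their libraries and size factors, so these values describe the libraries as much as the genes. For tested genes outside the 8, the median r with the mean of the 8 was 0.68 on the TPM scale and 0.08 after scaling. That is r with an average and not between pairs, so it is no background for the pairwise values. Pairwise r of other genes was not computed. The 5 genes most like the mean of the 8 were NR2F6 (r = 0.996, Spearman rho = 0.979), RALGAPA1, STARD13, LRRC8A and SAP30L, among 2207 genes with r above 0.9. After scaling they were ANKRD11 (r = 0.988, rho = 0.965), TMCC3, ZNF512B, NR2F6 and SRGAP1, among 520.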

How the data were processed

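RNA was extracted with TRIzol and sequenced on Illumina instruments. The authors pooled all reads for a Trinity assembly, collapsed it with cd-hit-est, named contigs by their best BLASTX match to Ensembl human proteins, aligned reads with Bowtie 0.12.1 and estimated levels with RSEM 1.1.6. Their own tests used DESeq2 1.16.1 on counts that are not used here. The deposited values are TPM per human gene symbol, 15091 symbols, and each library sums to 1000000. TPM keep no depth, so depth is unknown and no counting interval is given. Date-like symbols were restored for 25 genes. Genome build: not given in the sources used here. RefSeq symbols matched 7 of the 8 genes.

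After adding 0.1 TPM, log2 values were fitted by limma 3.58.1 (R 4.3.3) with 1 term per group over 12 libraries, which leaves 8 residual degrees of freedom. Variances were moderated along a trend in mean expression. P-values were adjusted after Benjamini and Hochberg across 13824 genes whose mean reached 1 TPM (1267 did not). A call is an adjusted p under 0.05. The script was tested on simulated data. Ratios within libraries were compared with exact permutation tests. Named genes were all 8 members and, per list and comparison, the gene of highest mean level and up to 3 called genes of lowest p, and not all are described. AGO1, AGO3, TNRC6C, LIN28A, LIN28B and PIWIL1 were named outside this rule, as relatives of the members or for their values. LSM2 was also named outside it, beside LSM3, LSM5 and LSM6 of the same list. The members and the lists were chosen with earlier results of these data known.

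Alternatives were median-of-ratios scaling, 1 in place of 0.1 as pseudocount, a minimum mean of 0 or 5 TPM, the replicate number as a block, only the compared groups, and leaving out each library or both numbered 1. Chosen after seeing the data were the mark of 0.2 TPM, leaving out uninjured inhibitor libraries 5 and 7, and the combinations of scaling with these and with single libraries left out.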

Additional observations from a re-analysis of the deposited data

How the results depend on the processing

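Several results changed with the scaling of libraries and with the libraries left out. For uninjured inhibitor against uninjured, the count of 7 of 8 members was 2 with median-of-ratios scaling, 4 with a mean of at least 5 TPM (DROSHA, AGO2 and TNRC6B then fall below the filter), 1 without both libraries numbered 1 plus scaling, and 0 without inhibitor libraries 5 and 7 with or without scaling. It ran from 4 to 8 with single libraries left out and from 1 to 3 with scaling added. For 4 dpi inhibitor against uninjured, the count of 5 was 0 with scaling, 1 with only the compared groups, 2 without both libraries numbered 1 (0 with scaling added), and 1 without inhibitor libraries 5 and 7 (0 with scaling added). It ran from 0 to 5 with single libraries left out and was 0 in each of these after scaling. The count of 0 for both comparisons of 4 dpi inhibitor with another group of 0 calls, uninjured inhibitor and 4 dpi control, ran from 0 to 1 with single libraries left out. With scaling added it ran from 0 to 1 for the former and for the interaction, and was 0 for the latter. The count was 0 for injury with the control inhibitor under every alternative run. Of the fold changes of single members under the alternatives, scaled fits with 1 library left out not counted, 879 kept direction and side of the threshold, 98 lost the call, 6 gained one, and 47 changed sign while called under neither setting. With scaling alone these were DGCR8 for 4 dpi inhibitor against 4 dpi control (0.47), DGCR8 for both inhibitor groups against uninjured (0.03 and 0.33), and DICER1 and TARBP2 for 4 dpi inhibitor against either 4 dpi control (0.0046 and 0.02) or uninjured inhibitor (-0.07 and -0.11).

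Same-numbered libraries did not deviate together throughout (correlations of deviations from the group means 0.51 and 0.20 for 4 dpi control with uninjured libraries 1 and 5, and -0.20, -0.23 and 0.01 for both inhibitor groups), and the labels give no shared animal, so the numbers were not taken to pair them. In uninjured inhibitor against uninjured, TNRC6B was the 1 of 7 members to lose its call under the block (adjusted p = 0.180). With the replicate block the counts of members were 1 for 4 dpi inhibitor against uninjured and 1 for 4 dpi inhibitor against uninjured inhibitor (AGO2, adjusted p = 0.0340), and genes called over the whole table were 741 for injury with the control inhibitor, 2229 for 4 dpi inhibitor against uninjured inhibitor and 1 for the interaction.

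Counts over all genes also moved. For 4 dpi inhibitor against 4 dpi control, 528 became 0 with scaling, 135 with no filter, 1347 at 5 TPM, 2458 with only the compared groups, 8 without both libraries numbered 1 (15 scaled) and 0 without inhibitor libraries 5 and 7 (1 scaled), and 0 to 2792 with single libraries left out. For uninjured inhibitor against uninjured, 8081 became 5136 with scaling, 5339 with only the compared groups, 4468 without both libraries numbered 1 plus scaling, and 7 without inhibitor libraries 5 and 7 (12 scaled). With these exclusions plus scaling, 5618 became 3708 and 3558 for 4 dpi inhibitor against uninjured. Injury with the control inhibitor gave 6 in place of 125 with only the compared groups and 282 without both libraries numbered 1 (239 scaled). For 4 dpi inhibitor against uninjured inhibitor, 86 became 177, 57, 51, 589, 598, 766 and 0 with scaling, no filter, 5 TPM, only the compared groups, both libraries numbered 1 left out, the same plus scaling, and inhibitor libraries 5 and 7 left out. Without those 2 libraries the interaction went from 6 to 0 (1 scaled). With single libraries left out the counts ran from 77 to 289 for injury with the control inhibitor, 2880 to 6453 for 4 dpi inhibitor against uninjured, 3 to 1071 for 4 dpi inhibitor against uninjured inhibitor and 0 to 11 for the interaction. Depth is unknown, so a level near 0 has no counting error here.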

Other observations

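Other small-RNA genes were read from the list of the PIWI pathway, which silences transposons in germ cells and is little used in most adult tissues. Of its 16 symbols 11 had a row and 9 were tested. PIWIL1, a PIWI protein, was at 51.5 TPM in the unnumbered uninjured library and listed at 0 in the other 2 uninjured libraries. It was at 1.99, 5.79 and 0.890 TPM in 4 dpi control libraries 1, 5 and 6 and listed at 0 in all 6 inhibitor libraries. A single library therefore carried most of the PIWIL1 signal, and the gene was not called in any of the 6 comparisons. TDRD9, a helicase of the same pathway, showed the opposite arrangement: it was listed at 0 in all 3 uninjured libraries and in 4 dpi control libraries 1 and 5, at 0.311 TPM in 4 dpi control library 6, and at 39.4, 23.1 and 46.0 TPM in uninjured inhibitor libraries 5, 6 and 7. In 4 dpi inhibitor libraries 5, 6 and 7 it was at 17.1, 0 and 0.124 TPM. The uninjured inhibitor libraries did not overlap with any other group (limma adjusted p = 0.00200 against uninjured and 0.0908 against 4 dpi inhibitor libraries). Against uninjured libraries, 8.93% of tested genes lay higher without overlap on the TPM scale. With a mean of 10.5 TPM, TDRD9 passed the filter of 1 TPM only through the inhibitor groups, where it averaged 36.1 and 5.74 TPM. In uninjured and 4 dpi control libraries it averaged 0 and 0.104 TPM. Its call is therefore tied to the groups in which it was high.

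LIN28A, which blocks the processing of let-7 precursors, was above 0 in 4 dpi libraries alone: at 2.71 TPM in 4 dpi control library 1 and at 2.24 and 1.06 TPM in 4 dpi inhibitor libraries 6 and 7. It was listed at 0 in all 6 uninjured libraries and in the other 3 injured ones, and its mean was below the filter, so it was not tested. Its relative LIN28B was at 2.72, 0.294 and 1.21 TPM in uninjured libraries 1, unnumbered and 5, and at 0.192, 0.511 and 0.436 TPM in uninjured inhibitor libraries 5, 6 and 7. It was at 2.95, 1.16 and 2.67 TPM in 4 dpi control libraries 1, 5 and 6 and at 1.05, 1.83 and 0.676 TPM in 4 dpi inhibitor libraries 5, 6 and 7. LIN28B passed in none of the 6 comparisons (limma adjusted p = 0.153 for uninjured inhibitor against uninjured). LIN28A, LIN28B and PIWIL1 are named here after their values were seen.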
